A study of Mus musculus with 12 samples.

Results

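Ubiquitin ligases choose which proteins receive ubiquitin, a small protein tag that sends its targets to the proteasome, to the lysosome or to a new place in the cell. An activating enzyme (E1) hands ubiquitin to a conjugating enzyme (E2), and the ligase brings the loaded E2 and the substrate together. RING-type ligases hold the E2 beside the substrate, HECT and RING-between-RING ligases first take ubiquitin onto a cysteine of their own, and F-box proteins are the substrate receptors of SCF complexes, in which a cullin joins them to a RING subunit. In neurons such ligases set the turnover of receptors, signalling proteins and chromatin marks. Described here are 7 mouse genes of these classes: March11, Wwp1, Rnf19a, Rnf20, Skp2, Fbxl7 and Fbxo10. They are 7 of the 56923 gene rows of the table, picked by symbol. They were chosen by measured values, since they lie in, or next to, 3 stretches of the genome selected on row levels that follow annotated exons.

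Sections of wild-type mouse brain spent 5 hours in artificial cerebrospinal fluid (aCSF), the salt solution that keeps slices alive, or in aCSF with L-fucose, a sugar found on many glycans of cell surface proteins and lipids. RNA was then sequenced. Each group had 6 libraries, numbered here as in the labels, which use the same numbers in both groups. Whether same-numbered libraries share an animal is not known here. The fluid and the time were common to both groups. The labels used here name no dose of L-fucose, brain region, age or sex. Nothing in the labels says whether the libraries of a group came from separate animals, so the errors and p-values measure the spread between these libraries. Totals ran from 9191687 reads (aCSF 4) to 18563078 (L-fucose 2), with a median of 11168285. Values are normalized reads, that is, the reads of a row over a size factor for depth. The libraries aCSF 5 and aCSF 6 stood apart, with 14340 and 14856 rows above 0 against 16514 to 19014 elsewhere and with 41.9% and 44.8% mitochondrial reads against 27.6% to 40.5%. Neuronal markers had reads in every library, with means over the 12 libraries from 1203 for Grin3a to 23323 for Basp1. The summed level of Basp1, Gabbr2, Grin3a and Ctnnd2, 4 of the 5 listed markers, was 40067 to 44999 in aCSF and 40266 to 44963 in L-fucose.

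How well row levels follow the exons under the row's name was measured over the stretches that hold these genes and was not measured here over the rest of the table. The stretches that hold these ligases are 3.1 to 41.0 Mb and 45.1 to 55.5 Mb of chromosome 4 and 8.9 to 36.7 Mb of chromosome 15 (GRCm38), with 862 rows, 283 of them protein-coding. Over all rows of a stretch, the correlation of log2 level with the coding-exon bases under the row was 0.82, 0.78 and 0.81 in that order. It was at its highest with no displacement on chromosome 4 and with a displacement of 1 kb on chromosome 15 (0.82). At displacements of more than 50 kb it reached at most 0.50, 0.64 and 0.53. These correlations run across rows, which are not replicates, and the stretches were chosen because levels match there.

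**Figure D1:**
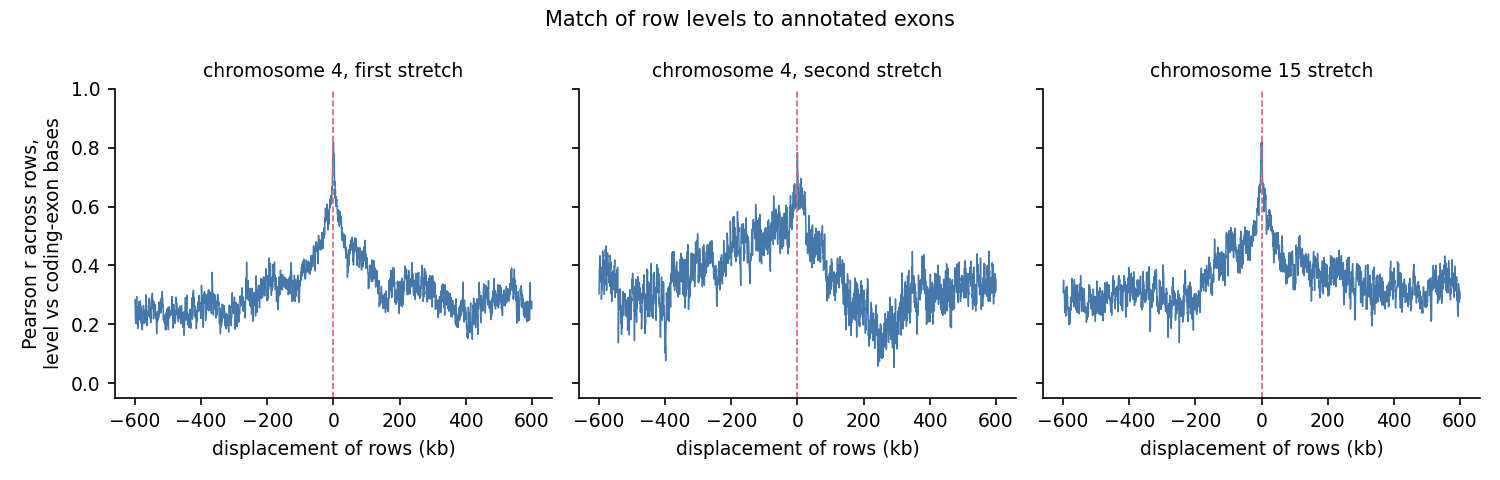
Pearson correlation across rows (vertical axis) between the log2 level of each row and the coding-exon bases it covers, after moving all rows of a stretch by the displacement on the horizontal axis, in kb. Each of the 3 stretches has a narrow peak at or within 1 kb of no displacement, marked by the dashed line.

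In the 4 overlapping windows of 80 rows that cover each gene, March11 and Fbxl7, which share their windows, matched best with no displacement in all 4, and Wwp1 and Rnf19a within 1 kb in all 4. Skp2 did so in 3 of 4, with 4 kb in the other, and Rnf20 in 2 of 4, with best displacements down to -10.0 kb. Fbxo10 ends 15.4 kb before the second stretch of chromosome 4 and so lies just outside the regions of the rule. It matched best with no displacement in 3 of 4 windows and at 7 kb in the other. Since the stretches were chosen on this match, these values are a description and no separate evidence of a row's name.

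Catalytic signatures show how the ligase classes differ, and each was found by a search of the codons of the longest coding transcript in GENCODE M21. March11 (ENSMUSG00000022269, chromosome 15 from 26309048 to 26409576, plus strand) belongs to the MARCH family of membrane-bound ligases and is known from studies of protein sorting in the endosomal system. Its RING-CH finger is encoded at codons 168 to 213 of 400, split between exon 1 (26309763 to 26309792) and exon 2 (26310971 to 26311078). Rnf20 (ENSMUSG00000028309, chromosome 4 from 49632006 to 49656887, plus strand) pairs with Rnf40 in the nucleus to attach ubiquitin to histone H2B. Its RING finger is at codons 920 to 958 of 973, in exon 21 of 21 (49655813 to 49655929). Wwp1 (ENSMUSG00000041058, chromosome 4 from 19608303 to 19708993, minus strand) is a HECT ligase of the NEDD4 family. The cysteine that takes up ubiquitin lies in a stretch at codons 876 to 896 of 918, split between exon 22 (19618285 to 19618316) and exon 23 (19611783 to 19611813). Capitals mark the 8 metal-binding cysteine and histidine codons of each finger and, in Wwp1, the codon of the catalytic cysteine. In the order of capitals, the fifth codon is histidine in March11 and the fourth is histidine in Rnf20, the difference that sets RING-CH apart from the classical RING finger.
March11: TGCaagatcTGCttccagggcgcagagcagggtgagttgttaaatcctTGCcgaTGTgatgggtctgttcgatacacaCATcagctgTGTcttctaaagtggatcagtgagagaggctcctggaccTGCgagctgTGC
Rnf20: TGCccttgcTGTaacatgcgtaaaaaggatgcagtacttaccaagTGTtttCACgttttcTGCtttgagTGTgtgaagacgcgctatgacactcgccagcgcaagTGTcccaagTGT
Wwp1: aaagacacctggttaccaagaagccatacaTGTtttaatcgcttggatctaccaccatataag

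The other members are Rnf19a (ENSMUSG00000022280, chromosome 15 from 36239933 to 36283147, minus strand), also called dorfin, a RING-between-RING ligase that ubiquitinates mutant SOD1 and occurs in protein inclusions of neurodegenerative disease, and 3 F-box genes. Skp2 (ENSMUSG00000054115, chromosome 15 from 9111985 to 9155425, minus strand) directs SCF to the cell cycle inhibitor p27. Fbxl7 (ENSMUSG00000043556, chromosome 15 from 26540459 to 26895580, minus strand) has Aurora A kinase and survivin among its described substrates, and Fbxo10 (ENSMUSG00000048232, chromosome 4 from 45034247 to 45084604, minus strand) has BCL2. March11 and Fbxl7 are near neighbours on chromosome 15. Exons of March11, Rnf20, Skp2, Fbxl7 and Fbxo10 overlap no other annotated gene. Of the exonic bases, 0.713% in Wwp1 and 2.68% in Rnf19a are shared, in Wwp1 with a gene on the other strand and in Rnf19a with the microRNA gene Mir8097. A copy of Wwp1, the gene model Gm13416, matches its transcript at 96.3% identity over 1622 bases. The row of Gm13416 was at 0 in all 12 libraries. Whether reads of this copy entered the row of Wwp1 was not tested, and the 0 does not settle it. No other gene matched a member's longest transcript at 95% identity over 100 bases, apart from Mir8097.

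Per length, Fbxl7 and Skp2 were scarce beside the other ligase genes. Fbxo10 had 425 ± 48.4 normalized reads per kb of exon (mean and SD over 12 libraries), Rnf20 200.3 ± 23.2 and Rnf19a 192 ± 25.5. March11 followed at 139 ± 24.0 and Wwp1 at 134 ± 21.7, and the scarce genes were Fbxl7 at 14.04 ± 4.75 and Skp2 at 10.6 ± 2.74. The median of the 283 protein-coding rows in the stretches was 93.6 per kb, so 5 of the ligases lay above it and Fbxl7 and Skp2 below. March11 and Wwp1 were near the middle, above 59.4% and 58.3% of these rows. Fbxo10 was above Rnf20, and Wwp1 above Fbxl7, in 12 of 12 libraries. Neighbours with overlapping spread were Rnf20 and Rnf19a (the first higher in 7 of 12 libraries), March11 and Wwp1 (8 of 12) and Fbxl7 and Skp2 (9 of 12). Rnf19a exceeded March11 in 11 of 12. Division by the longest transcript in place of all exons left this order as it was, though 4 levels moved by over 1 SD. Rnf20 then had 339 ± 39.2 per kb, March11 185 ± 31.9, Fbxl7 19.8 ± 6.69 and Skp2 13.5 ± 3.49.

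**Figure D2:**
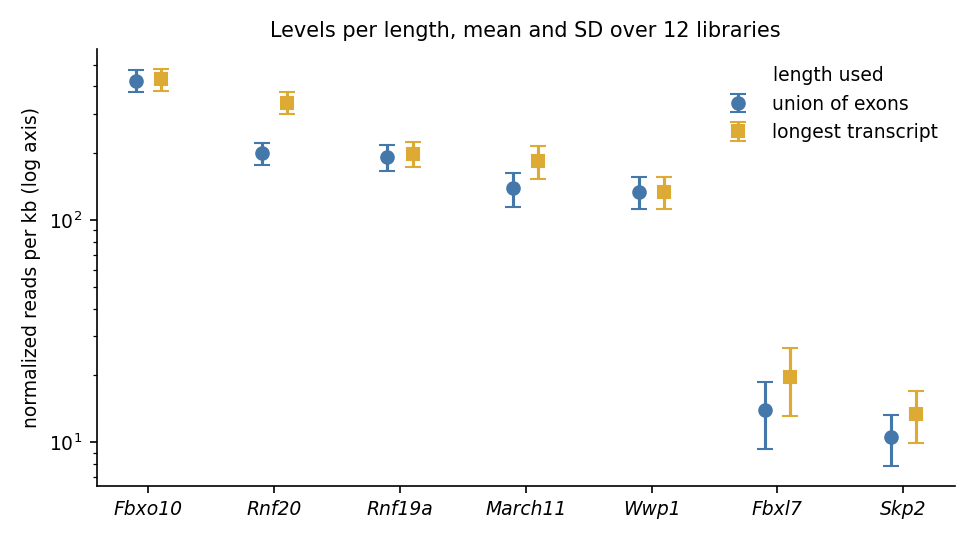
Normalized reads per kb (vertical log axis) of the 7 ligase genes, as mean and SD over 12 libraries, with the length taken as the union of exons (circles) or the longest transcript (squares). Fbxo10 is highest at 425 per kb and Skp2 lowest at 10.6 per kb of exon, and the order is the same with either length.

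Whether 5 hours of L-fucose changed the RNA level of these ligases was asked with limma, fitted to log2(value + 1) over all 10787 rows that had at least 10 normalized reads in at least 6 libraries. All 7 genes passed that filter. With 6 libraries a group, 0 of the 7 passed an adjusted p of 0.05 in limma, as did 0% of all rows in either direction. At an unadjusted p under 0.05 there were also 0 of 7, against 5.96% of all rows (3.17% higher and 2.79% lower in L-fucose) and 8.42% of the tested rows in the stretches, and the groups overlapped in all 7 genes (0.287% of all rows had groups apart). That count of 0 changed in some alternatives. The unadjusted limma p of March11 was 0.035 without aCSF 3, 0.030 without aCSF 5 and 0.020 without aCSF 5 and 6. That of Rnf19a was 0.046 without aCSF 4 and 0.049 without L-fucose 6. All rows under 0.05 were, in that order, 652 of 10613, 655 of 10587, 11.3% of 10425, 604 of 10574 and 765 of 10588. Each gene had 12 fits with 1 library left out. Of these, 2 were under 0.05 for March11, 2 for Rnf19a and 0 for each other member. Log2 fold changes, L-fucose minus aCSF, ran from -0.39 for Fbxl7 to 0.28 for March11, with 3 positive and 4 negative and a median of -0.0083. The median over all rows was 0.014 and over the 273 tested rows of the stretches -0.058. The 95% intervals of all 7 lay within 1 log2 unit of 0, and those of 4 within 0.5. In bulk tissue, fewer cells of a type and less RNA per cell cannot be told apart.

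**Figure D3:**
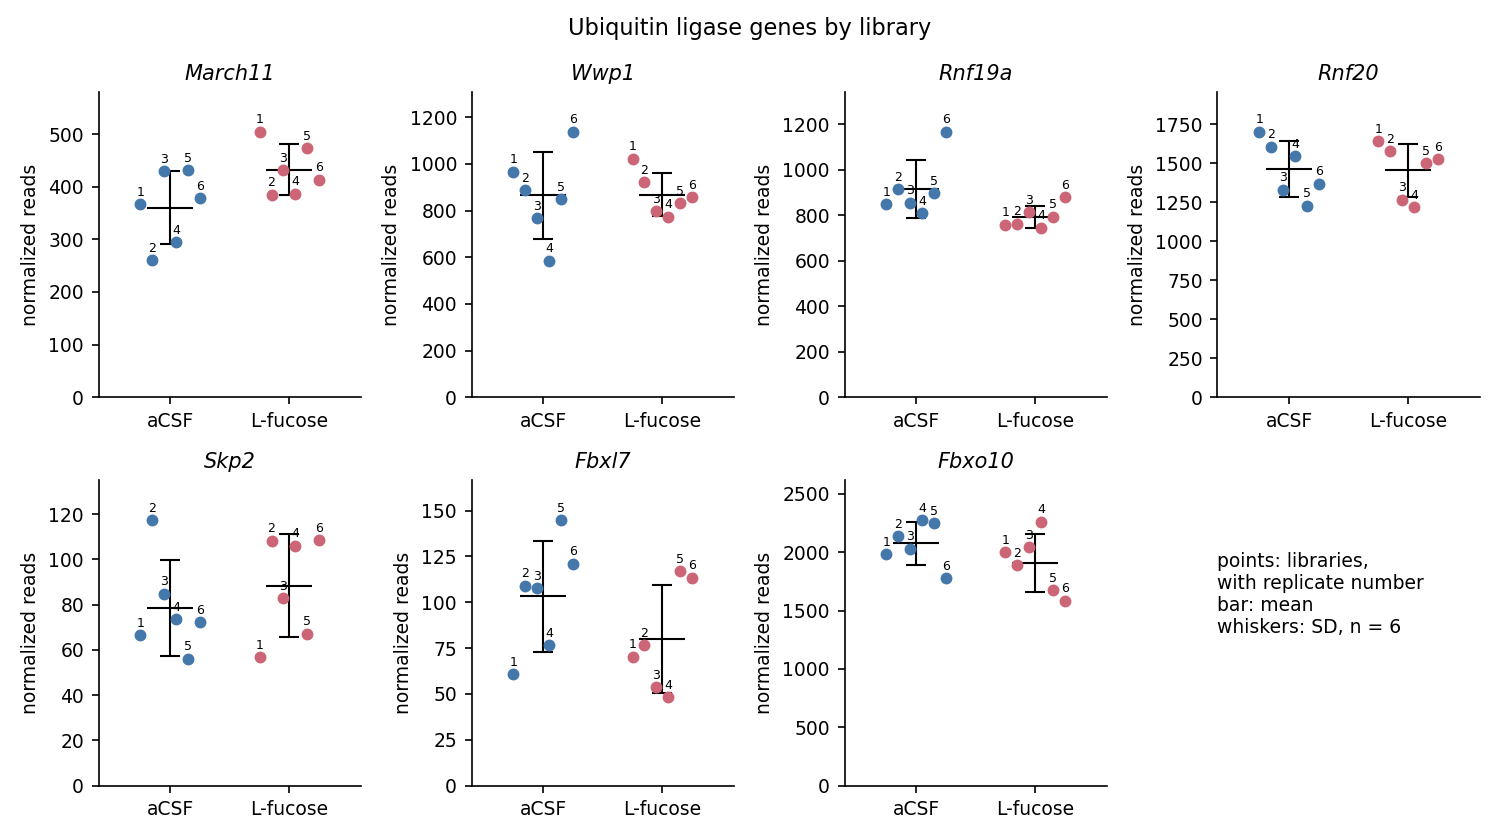
Normalized reads of each ligase gene (vertical axis, from 0) in the 6 aCSF libraries (blue) and the 6 L-fucose libraries (red), with replicate numbers beside the points and the mean and SD as bars. The groups overlap in each gene, March11 has its lowest values in aCSF 2 and aCSF 4, and the highest Rnf19a value is that of aCSF 6.

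March11, the membrane-bound ligase, was the member with the highest fold change, and it heads the group because earlier results of these data had singled it out, so its difference is given as a description. In aCSF its lowest value was 260.5 normalized reads (aCSF 2), its median 372 and its highest 432 (aCSF 5). In L-fucose these were 385 (L-fucose 2), 422 and 504 (L-fucose 1). The L-fucose libraries all lay above the aCSF median, as they did in 6.22% of all rows, but aCSF 3 and aCSF 5 were above the lowest of them. Mean levels were 432 ± 48.01 with L-fucose and 360.3 ± 69.9 without (± SD, n = 6 per group). The difference of log2 means was 0.28 (SE 0.14), or 1.21-fold with a 95% interval from 0.989 to 1.49. The adjusted p of limma was 0.842, and the unadjusted p ranked 780 among 10787 rows. Without the libraries that stood apart, aCSF 5 and 6, the value was 0.37 (limma adjusted p 0.375), and over all alternatives it stayed between 0.19 and 0.37.

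Wwp1, the HECT ligase, had nearly equal means in the groups. Its aCSF values ran from 585 (aCSF 4) through a median of 869 to 1138 (aCSF 6), and its L-fucose values from 774 (L-fucose 4) through 845 to 1023 (L-fucose 1). The aCSF range enclosed the L-fucose range. Mean levels were 868 ± 92.1 with L-fucose and 866 ± 186 without, and the log2 difference of 0.026 had an interval from -0.25 to 0.30, or 0.840- to 1.23-fold. Its sign turned when aCSF 3, aCSF 4 or L-fucose 1 was left out, with values down to -0.081, and it was 0.13 without aCSF 5 and 6. Tgfbr1, the type I receptor of TGF-beta, which WWP1 is known to mark for degradation with the adaptor SMAD7, was the only gene of the list of ligase partners whose row lay in the stretches. The receptor protein was not measured here. Tgfbr1 RNA was at 723 ± 74.1 with L-fucose and 862 ± 132 without, a log2 difference of -0.25 (limma adjusted p 0.835). Its unadjusted limma p was 0.048 (5.96% of all rows were under 0.05), and 0.29 without aCSF 5 and 6. Each of its 6 L-fucose values was under the aCSF median, as in 7.92% of all rows, and without aCSF 5 and 6 the value was -0.13.

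Rnf19a, the RING-between-RING ligase, had a lower mean in L-fucose, at 792 ± 49.8 against 914 ± 129 in aCSF. In aCSF it ran from 808 (aCSF 4) through a median of 875 to 1166 (aCSF 6), and in L-fucose from 745 (L-fucose 4) through 778 to 879.9 (L-fucose 6). The L-fucose libraries lay below the aCSF median in 5 of 6 cases, and the spread of aCSF came largely from the value of aCSF 6. The log2 difference was -0.20 (SE 0.10), or 0.871-fold with an interval from 0.750 to 1.01, and the adjusted p of limma was 0.848. Without aCSF 6 the log2 difference was -0.13, and without aCSF 5 and 6 it was -0.11. Without aCSF 4 or L-fucose 6 it was -0.23, so its size changed with the library left out.

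Rnf20, the histone H2B ligase, was among the steadiest of the 7. Its aCSF values ran from 1228 (aCSF 5) through 1458 to 1703 (aCSF 1), and its L-fucose values from 1219.6 (L-fucose 4) through 1513 to 1643 (L-fucose 1). The groups covered nearly the same range. Means of 1455 ± 172 with L-fucose and 1464 ± 182 without gave a log2 difference of -0.0083, its interval running from -0.23 to 0.21, or 0.853- to 1.16-fold. The sign of so small a value changed with the library left out and with the upper-quartile scaling of edgeR, and the value was -0.091 without aCSF 5 and 6. Its partners Rnf40, Wac, Ube2a and Ube2b lie outside the stretches, and their rows are not used here.

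The F-box genes divided into a well-counted one and the scarce ones. Fbxo10 had means of 1909.9 ± 249.8 normalized reads with L-fucose and 2077 ± 185 without. In aCSF it ran from 1780.3 (aCSF 6) through a median of 2085 to 2274 (aCSF 4), and in L-fucose from 1585 (L-fucose 6) through 1947 to 2263 (L-fucose 4). The log2 difference was -0.13 (SE 0.10, interval -0.33 to 0.081, limma adjusted p 0.888), and 5 of 6 L-fucose values were under the aCSF median. Without L-fucose 6 it was -0.075. Skp2 had 88.3 ± 22.7 in L-fucose, from 56.8 (L-fucose 1) through a median of 94.5 to 109 (L-fucose 6). In aCSF it had 78.4 ± 21.3, from 56.1 (aCSF 5) through 72.9 to 117 (aCSF 2). Its log2 difference of 0.17 had an interval from -0.34 to 0.67, and it moved with the libraries used. It was 0.29 without aCSF 2, 0.28 without L-fucose 1, 0.10 without L-fucose 4, 0.098 without L-fucose 2 or L-fucose 6, 0.078 without aCSF 5 and 0.036 without aCSF 5 and 6.

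Fbxl7 had the most negative value and the widest interval of the 7. In aCSF it ran from 60.7 (aCSF 1) through a median of 108 to 145 (aCSF 5), and in L-fucose from 48.3 (L-fucose 4) through 73.5 to 117 (L-fucose 5). Of the aCSF libraries, 5 and 6 were highest, and of the L-fucose libraries, 3 and 4 lowest. Means of 79.9 ± 29.3 with L-fucose and 103 ± 30.4 without gave a log2 difference of -0.39 (SE 0.27, interval -0.95 to 0.18, limma adjusted p 0.872). Without aCSF 5 and 6 it was -0.18. Read numbers a library were 41 to 138 for Fbxl7 and 50 to 178 for Skp2.

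Over the 12 libraries the coefficient of variation was 11.4% in Fbxo10, 11.6% in Rnf20, 13.2% in Rnf19a, 16.2% in Wwp1 and 17.3% in March11, where read counting alone gives 2.25%, 2.60%, 3.43%, 3.40% and 5.02%. In Skp2 and Fbxl7 it was 25.9% and 33.8%, against 10.8% and 10.4% from counting.

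**Figure D4:**
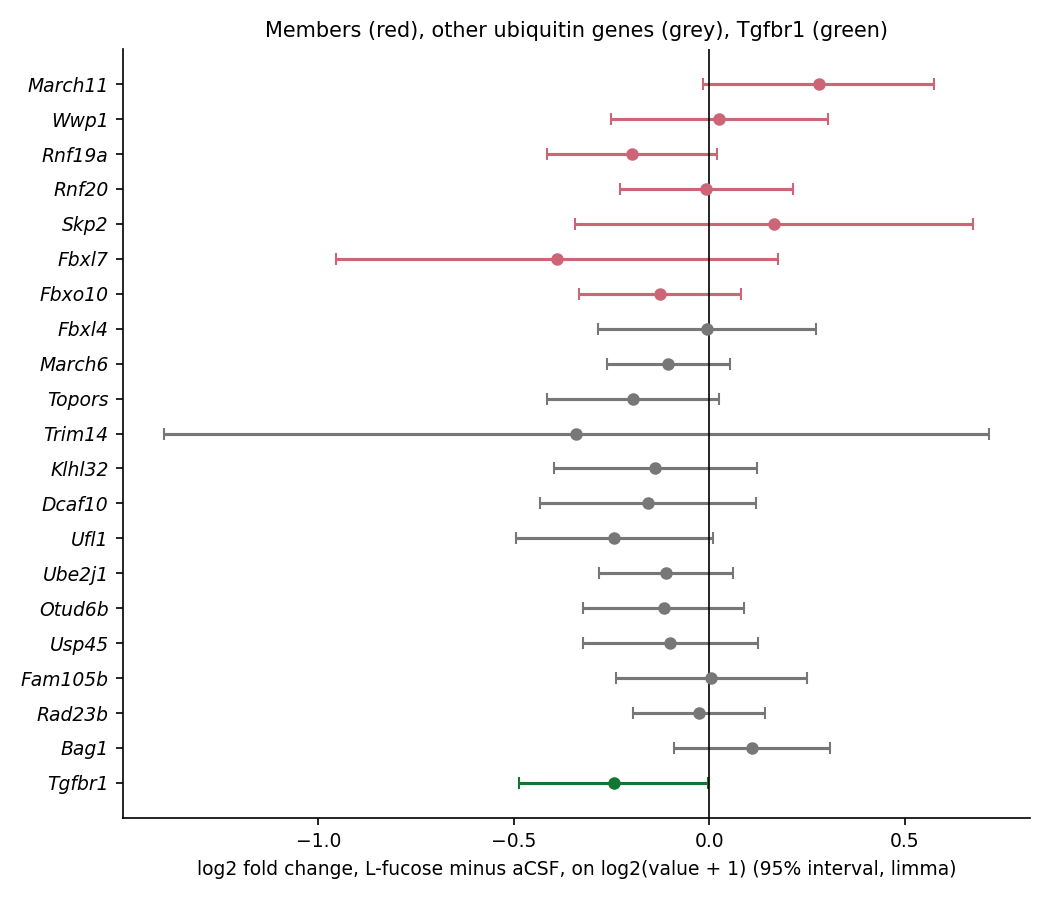
Difference of mean log2(value + 1), L-fucose minus aCSF (horizontal axis), with the 95% limma interval, for the 7 ligase genes (red), the 13 tested genes of the wider ubiquitin system (grey) and Tgfbr1 (green). The intervals of the 7 ligases include 0, with values from -0.39 for Fbxl7 to 0.28 for March11. That of Tgfbr1 ends at -0.0030, and Trim14 has the widest interval.

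The wider ubiquitin system was covered by a list of 26 other ligases, E1 and E2 enzymes, deubiquitinases and proteasome cofactors, of which 14 lay in the stretches and 13 were tested. With limma, 0 of 13 passed at the adjusted threshold and 0 had an unadjusted p under 0.05. Without aCSF 5 and 6, the unadjusted limma p was 0.019 for Bag1 and 0.048 for Topors, where 11.3% of all tested rows were under 0.05. Values were negative in 11 and positive in 2, with a median of -0.11, where 37.7% of the tested rows of the stretches and 52% of all rows were positive. Without aCSF 5 and 6, 4 of the 13 were positive (Fbxl4, Fam105b, Rad23b and Bag1) and the median was -0.083. Among further ligases and adaptors, Ufl1, which attaches the ubiquitin-like modifier UFM1, had 592 ± 55.9 with L-fucose and 707 ± 127 without, a log2 difference of -0.24. Topors, a RING ligase for ubiquitin and SUMO, had 634 ± 45 and 728 ± 80.3, or -0.20. Without aCSF 5 and 6, Ufl1 was at -0.19 and Topors at -0.23. Both genes, 2 of the 13 tested, had each of the 6 L-fucose values under the median of aCSF, as did 7.92% of all rows. March6, the MARCH-family ligase of the endoplasmic reticulum, was at -0.11 with an interval from -0.26 to 0.053, unlike March11 in sign, a difference that was not tested, and at -0.063 without aCSF 5 and 6. The cullin-3 adaptor Klhl32 was at -0.14, the cullin-4 receptor Dcaf10 at -0.16 (-0.083 without aCSF 5 and 6) and the mitochondrial F-box protein Fbxl4 at -0.0060. Trim14, at 17.6 ± 8.81 with L-fucose and 21.2 ± 8.17 without, shares 38.0% of its exonic bases with neighbouring genes, so its value of -0.34 (-0.17 without aCSF 5 and 6) is uncertain. Fbxo43, an inhibitor of the anaphase-promoting complex in germ cells, did not pass the filter, with means of 0.689 in L-fucose and 3.26 in aCSF.

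Of the enzymes before and after the ligase step, Ube2j1, the E2 of the endoplasmic reticulum, had 3842 ± 307 with L-fucose and 4147 ± 283 without, a log2 difference of -0.11. The deubiquitinases Otud6b, Usp45 and Fam105b (OTULIN) were at -0.12, -0.10 and 0.0052. Without aCSF 5 and 6, Usp45 was at -0.0076, and 4 of its 6 L-fucose values were above the median of all aCSF libraries. Rad23b, which carries ubiquitinated proteins to the proteasome, was abundant at 8252 ± 437 with L-fucose and 8429 ± 757 without and had a value of -0.027 with an interval from -0.20 to 0.14. Bag1, a cofactor that links the chaperone HSC70 to the proteasome, was at 0.11 (-0.090 to 0.31) and at 0.22 without aCSF 5 and 6. Of these 13 intervals, 12 excluded 0.5 log2 units either way, and the other was that of Trim14.

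Among the 21 pairs of members, Pearson's r of log2 values over the 12 libraries ran from -0.48 (March11 and Skp2) to 0.60 (Rnf19a and Fbxl7), and March11 and its neighbour Fbxl7 had 0.0079. Of the other tested named genes in the stretches, the rows most like March11 were the long noncoding RNA AI427809 (r = 0.74, Spearman's rho = 0.89), Nkain3 (0.74 and 0.41), which encodes a partner of the sodium pump, and Pdp1 (0.61 and 0.64), the phosphatase that activates pyruvate dehydrogenase. The nearest to Wwp1 was Fam173b at r = 0.88, to Rnf19a Tbc1d2 at 0.85 and to Rnf20 Clvs1 at 0.81. For Skp2 it was Triqk at 0.67, for Fbxl7 the deubiquitinase gene Usp45 at 0.77 and for Fbxo10 Otulinl at 0.82. Each is the highest of 226 correlations, or 227 for Fbxo10, over the same 12 libraries, which share depth and handling, and is given as a description.

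Markers of other cell types in the stretches were set beside these values, while the listed markers of interneurons and fibroblasts lie outside them. The ependymal markers Spef2, Cfap206, Capsl and Dnah5 summed to 213 to 339 normalized reads in L-fucose and 383 to 559.8 in aCSF. These sums did not overlap between the groups, and how often sums of 4 rows do so was not measured. None of the 4 genes was at 0, and 0 of the 4 singly had groups apart, as 0.287% of all rows did. Each of the 4 had its 6 L-fucose values under the aCSF median, as 7.92% of all rows did. Their unadjusted limma p was 0.0021, 0.0025, 0.0082 and 0.023 in that order, where 5.96% of all rows were under 0.05. The smallest adjusted p of limma among them was 0.775. Penk, a marker of striatal neurons, ran from 6537 to 12217 in L-fucose and from 3075 to 9043 in aCSF. All 6 L-fucose values of Penk were above the aCSF median, as in 6.22% of all rows. Its log2 difference was 0.61 (unadjusted limma p 0.0057, adjusted p 0.827). Without aCSF 5 and 6 it was 0.88 (adjusted limma p 0.234, unadjusted p 5.3e-05, where 11.3% of all rows were under 0.05). Prlr, high in choroid plexus, ran from 104 to 374 in L-fucose and from 169 to 582 in aCSF. Fut9, 1 of 2 listed markers of astrocytes and oligodendrocyte precursors, ran from 1563 to 2048 in L-fucose and from 1602 to 2819 in aCSF. Prlr was at -0.57 and Fut9 at -0.23 (unadjusted limma p 0.062 and 0.092). The part of these markers in the values of the ligase genes was not tested.

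**Figure D5:**
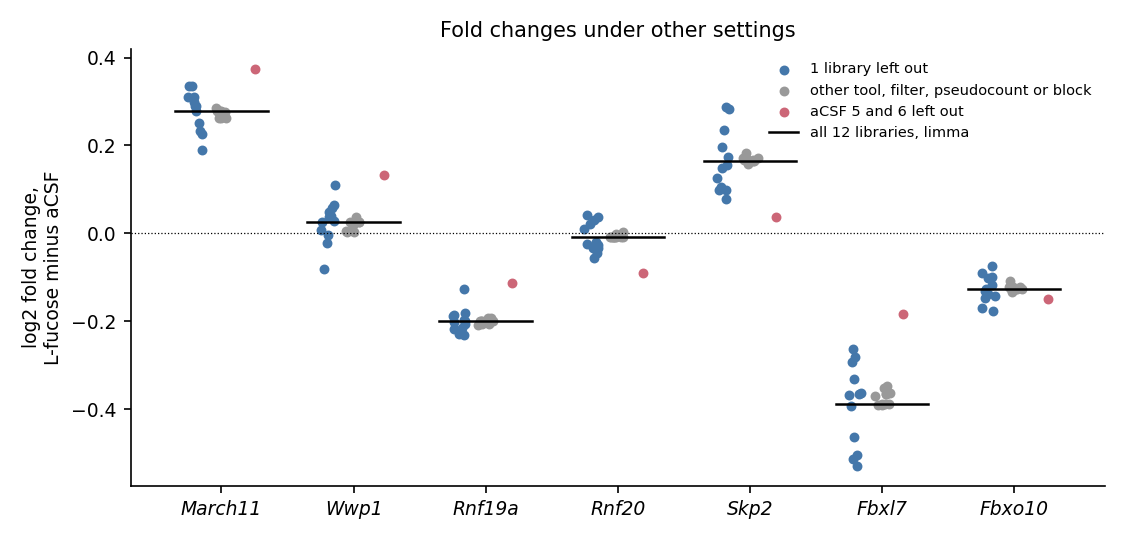
Log2 fold change of L-fucose minus aCSF (vertical axis) of each ligase gene with all 12 libraries (black line), with 1 library left out (blue), with another tool, scaling, filter, pseudocount or replicate block (grey) and without aCSF 5 and 6 (red). March11 and Skp2 stay above 0 and Rnf19a, Fbxl7 and Fbxo10 below 0 in all 24 alternatives, and Wwp1 and Rnf20 cross 0.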

How the data were processed

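RNA from 12 brain section samples was sequenced after selection on poly-T beads, per the labels' protocols. Per the submitters' processing notes, mm10 was the build, and HISAT2 2.2.1, Trimmomatic 0.39, DESeq2 2.11.40.8 and featureCounts 2.0.3 were used. The annotation release and the strand setting were not given in the sources used here. One table was deposited by the authors, and its values are a normalized signal, gene reads over 1 size factor per library. Within 0.01 reads, 100% of values in each library were whole multiples of 1 read's worth, and reads were recovered by that division.

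Identifiers were matched to GENCODE M21 (GRCm38), which named 52073 of 56923. limma 3.58.1 (R 4.3.3) was fitted to log2(value + 1) with the group in the model and a mean-variance trend, two-sided, with Benjamini-Hochberg adjustment over 10787 rows and a threshold of 0.05. The filter kept rows that reached 10 in 6 or more libraries. Fold changes on this scale understate changes of low rows. The fit was tested on simulated data. Levels per kb used the union of exons. Row positions were checked in windows of 80 rows, moved by up to 600 kb in steps of 500 bp. Copies were sought with blastn 2.17.0. Alternatives were edgeR 4.0.16, DESeq2 1.42.0, limma-voom, other filters and pseudocounts, a replicate block and left-out libraries. No pair of libraries of a group was a duplicate (lowest chi-square per degree of freedom 9.37).

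The genes named are the 7 members, the rows in the stretches of fixed lists of ubiquitin genes, partners and cell type markers, and the rows most like each member. Members and lists were chosen with earlier results of these data known.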

Additional observations from a re-analysis of the deposited data

Results flagged for a closer look

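Rnf19a was 1166 normalized reads in aCSF 6, far from the other aCSF libraries, which lay between 808 and 914. Of 20 groups of 6 values examined (the 7 genes, library totals, rows above 0 and mitochondrial share in each condition) this was the only such case, and chance alone gives one in about 5% of groups. Without aCSF 6 the Rnf19a log2 fold change was -0.13 in place of -0.20.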

How the results depend on the processing

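Of 168 refits of member fold changes, 24 for each gene, 0 passed the adjusted threshold and 9 had the opposite sign, 3 in Wwp1 and 6 in Rnf20. With 1 library left out, Wwp1 ran from -0.081 to 0.11 and Rnf20 from -0.057 to 0.041, without aCSF 5 and 6 they were at 0.13 and -0.091, and Rnf20 was at 0.0037 in edgeR with upper-quartile factors; the cause was not tested. March11 kept its sign throughout, from 0.19 without aCSF 2 to 0.37 without aCSF 5 and 6. The count of rows past the threshold was 0 higher and 0 lower in limma and in each alternative other than DESeq2, which called 1 row lower, Gabrr2, named after its value was seen. At an unadjusted p under 0.05, limma had 643 of 10787 rows, edgeR with TMM factors 604 of 10771, limma-voom 632 and DESeq2 1054 of 29080. Without aCSF 5 and 6 there were 1177 of 10425 rows. Both groups carry the same library numbers, and the main fit did not pair them. Correlations of deviations between same-numbered libraries ran from -0.17 to 0.17, with 1 of 6 best with its own number. Such correlations cannot show whether the design was paired. With the replicate block, March11 was at 0.28 in limma and in edgeR (adjusted p 0.901 and 0.992, unadjusted p 0.052 in each). Without the block, its unadjusted p was 0.062 in limma and 0.076 in edgeR with TMM factors. Counting alone gives a coefficient of variation of 10.8% in Skp2 and 10.4% in Fbxl7, of 25.9% and 33.8% over the 12 libraries, and whether depth limits their values was not tested.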
